A study of Mus musculus with 12 samples.

Results

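Of 10 transcription factor genes listed as markers of cortical neuron identity, 9, among 22317 genes in the count table, were described across 4 groups of mouse libraries. They were Tbr1, Cux1, Cux2, Fezf2, Bcl11b, Neurod2, Foxp2, Rorb and Mef2c, each taken by its symbol in the table of gene counts, and the level of Neurod6 was not analysed here. The study used wild-type male BALB/c mice aged 8 weeks and closed small vessels by photothrombosis (PT), in which a laser activates the dye Rose Bengal in the blood and clots form under the light spot. SB2 and SB4 were labelled brain cortex on day 2 and day 4 after PT of the skull, and BS2 and BS6 were labelled interparietal bone, a plate at the back of the skull, on day 2 and day 6 after PT of the brain (S2B, S4B, B2S and B6S in the study). All 4 groups had therefore been injured, and no uninjured group was analysed here. Each group had 3 libraries of poly(A) RNA from whole pieces of tissue holding ischemic and peri-ischemic parts. The study states 3 biological replicates per condition. The labels do not tie the libraries to single animals, so the p-values measure the spread between these libraries.

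Projection neurons of the cortex are excitatory neurons born in sequence and stacked in layers, and a small set of transcription factors sets which layer and which target each one takes. Tbr1 marks early-born neurons of layer 6, Fezf2 and Bcl11b (also called Ctip2) set the neurons of layer 5 that project below the cortex, Rorb marks layer 4, and Cux1 and Cux2 mark the upper layers. Neurod2 and Neurod6 are basic helix-loop-helix factors of nearly all cortical excitatory neurons, Foxp2 is a forkhead factor of deep layers that is needed for vocal behaviour, and Mef2c controls synapse number in response to activity. Several of these genes have other uses outside the brain: Bcl11b is needed for T cells, Mef2c for muscle, bone and B cells, Rorb for the retina and pineal gland, and Cux1 is made in many cell types.

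The tissue named by the labels was checked against marker genes of cell types before the transcription factors were read. Levels are given as CPM, counts of a gene relative to all counts of its library (counts per 1000000) after TMM scaling, and the libraries held from 14126082 to 18972654 counts. The summed level of 12 neuron markers was 13700 to 14200 CPM in the libraries labelled SB4 and 13300 to 13600 CPM in those labelled BS2, against 79.5 to 126 CPM in SB2 and 87.6 to 175 CPM in BS6. The summed level of 9 osteoblast and osteocyte markers ran the other way, at 36300 to 41600 CPM in SB2 and 19900 to 80700 CPM in BS6, against 22.7 to 25.8 CPM in SB4 and 24.4 to 34.7 CPM in BS2. The libraries labelled SB2 thus held bone marker transcripts and few of neurons although their label names brain cortex, and the libraries labelled BS2 held neuron transcripts and few of bone although their label names bone. BS6 replicate 2 stood apart from the other libraries of its group over many genes, SB2 replicate 2 in genes of the pineal gland, and SB2 replicate 3 in skeletal muscle genes, as described beside Neurod2, Rorb and Mef2c. Every direction below follows the labels of the libraries, and time and tissue content cannot be told apart between SB2 and SB4 or between BS2 and BS6. In whole tissue, fewer cells of a type and less RNA per cell cannot be told apart either.

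Tbr1, Fezf2, Neurod2, Cux2, Rorb and Mef2c, 6 of the 9 genes, were high in all libraries of SB4 and BS2 and low in all libraries of SB2 and BS6. Foxp2 had the opposite order, Cux1 was near the same level in all 4 groups, and Bcl11b lay between. A gene was called where the edgeR quasi-likelihood test gave an adjusted p under 0.05 and the log2 fold change was beyond 1 in size. Between SB4 and SB2, 7 of the 9 genes were called, 6 higher and 1 lower in SB4. Of all 17293 genes tested in that comparison 56.4% were called, 27.8% higher and 28.6% lower, so a call by itself sets few genes apart here. Between BS6 and BS2, 7 of the 9 genes were called again, 1 higher and 6 lower in BS6, where 55.5% of 17311 genes were called, 29.0% higher and 26.5% lower. Without SB2 replicate 2 and BS6 replicate 2, 7 of the 9 genes were called in each of these comparisons as well.

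**Figure D1:**
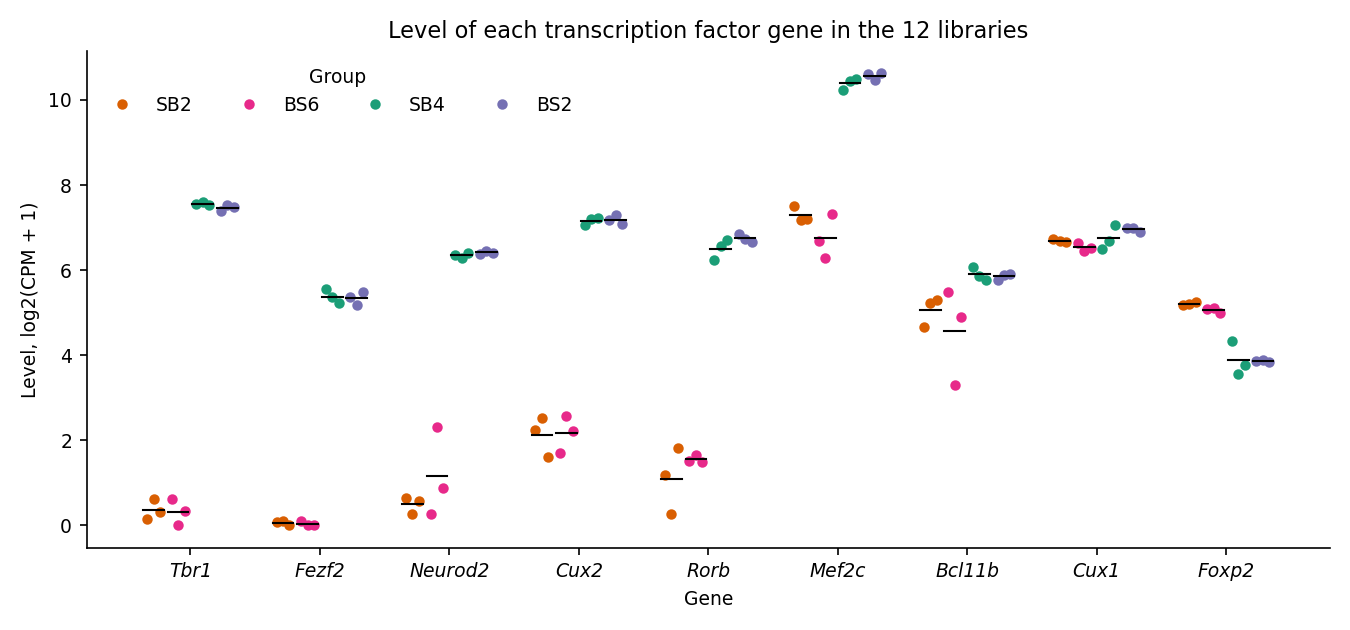
Level of each of the 9 genes on the log2(CPM + 1) scale, with 1 point for each library, coloured by group, and a line at the mean of the 3 libraries. SB4 and BS2 lie together at the top for Mef2c, Tbr1, Cux2, Rorb, Neurod2 and Fezf2, the 4 groups lie close together for Cux1, and SB2 and BS6 are the upper pair for Foxp2.

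Tbr1, the T-box factor of layer 6, lies on chromosome 2 at 61802930 to 61814114 (plus strand, mm10). Its level was 187, 192 and 185 CPM in the SB4 libraries and 167, 183 and 178 CPM in BS2. It was 0.114, 0.525 and 0.242 CPM in SB2, from 2, 8 and 4 counts, and 0.534, 0 and 0.259 CPM in BS6, from 8, 0 and 4 counts. The 3 counts taken as the floor of a library amount to 0.158 to 0.217 CPM, so part of the SB2 and BS6 values lie at or under it. Tbr1 was higher in SB4 than in SB2 by 9.35 on the log2 scale (SE 0.17, edgeR adjusted p = 2.07e-12) and differed by -9.36 between BS6 and BS2 (SE 0.54, adjusted p = 1.9e-05). Without BS6 replicate 2, where no Tbr1 read was counted, the second difference was -8.76, and without BS6 replicate 1 it was -10.34. Without SB2 replicate 2, the highest of its group, the first difference was 10.02.

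Fezf2, the zinc finger factor that directs layer 5 neurons to the spinal cord and brainstem, lies on chromosome 14 at 12342094 to 12348189 (minus strand). It had 45.8, 40.3 and 36.2 CPM in SB4 and 40.6, 35.1 and 43.8 CPM in BS2. The 3 SB2 libraries had 1, 1 and 0 counts of Fezf2 and the 3 BS6 libraries 1, 0 and 0 counts. Fezf2 thus had the fewest counts of the 9 genes in the libraries with bone transcripts. Set against the floor of 3 counts per library, Fezf2 was at least 223-fold higher in SB4 than in SB2 and at least 205-fold lower in BS6 than in BS2.

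Neurod2, at chromosome 11, 98325415 to 98329648 (minus strand), had 80.6, 76.8 and 83.5 CPM in SB4 and 82.6, 86.3 and 84.1 CPM in BS2. It had 0.568, 0.197 and 0.484 CPM in SB2 and 0.2, 3.94 and 0.841 CPM in BS6. The high BS6 value was that of replicate 2, which rested on 63 counts where the other two BS6 libraries had 3 and 13. Neurod2 was higher in SB4 than in SB2 by 7.55 (log2, SE 0.17, edgeR adjusted p = 7.14e-12) and differed by -5.64 between BS6 and BS2 (SE 0.8, adjusted p = 0.000809). Without BS6 replicate 2 the second difference was -7.3 (edgeR adjusted p = 4.12e-08).

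BS6 replicate 2 stood apart in other marker genes too. Its sum of the 12 neuron markers was 175 CPM against 87.6 and 91.5 CPM in the other two BS6 libraries, and that of 8 oligodendrocyte markers 424 CPM against 181 and 199 CPM. That of 8 astrocyte markers was the lowest, at 531 CPM against 579 and 771 CPM, and was carried by Gja1. Gja1 was also high in SB2 (mean 694 CPM) and was lowest of BS6 in that library (182 CPM, with up to 672 CPM in the group). Each of the other astrocyte markers was highest of BS6 there. Slc1a2, for example, had 68.8 CPM there, where the lowest BS6 value was 8.99 CPM. Single genes were named after their values were seen. Cbln1, made by cerebellar granule cells, was at 12.6 CPM there against 1.6 and 2.13 CPM in the other two BS6 libraries, and Pcp2, a Purkinje cell gene, at 4.82 CPM against 0.0667 and 0 CPM. The whole list of 4 cerebellum and hindbrain markers did not follow, since its sum was lowest in that library, at 191 CPM against 217 and 222 CPM, and was carried by Zic1 (170 CPM against 213 and 217 CPM). Gad1, the enzyme that makes GABA, was at 26.5 CPM against 1.13 and 0 CPM, and Calb1, a calcium-binding protein of interneurons and Purkinje cells, at 20.1 CPM against 1 and 0.0647 CPM. Its osteoblast and osteocyte sum was the lowest of the 3, at 19900 CPM against 57100 and 80700 CPM. Its macrophage and neutrophil sum was the highest, at 16200 CPM against 1510 and 2760 CPM, and was carried by the neutrophil genes Ngp, S100a8, Ltf and Camp. The part of these differences in the Neurod2 level was not tested.

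Cux2, an upper-layer homeodomain factor at chromosome 5, 121856366 to 122050102 (minus strand), had 133, 145 and 148 CPM in SB4 and 143, 155 and 134 CPM in BS2. It had 3.69, 4.72 and 2.06 CPM in SB2 and 2.27, 4.94 and 3.62 CPM in BS6, so that it was low but above the floor in every library with bone transcripts. The difference was 5.36 between SB4 and SB2 (log2, SE 0.2, edgeR adjusted p = 4.74e-08) and -5.31 between BS6 and BS2 (SE 0.29, adjusted p = 1.5e-05).

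Rorb, the nuclear receptor of layer 4, lies on chromosome 19 at 18930605 to 19111196 (minus strand). It had 74.4, 94 and 104 CPM in SB4 and 115, 106 and 100 CPM in BS2, and 1.25, 0.197 and 2.54 CPM in SB2 against 1.87, 2.13 and 1.81 CPM in BS6. The 3 BS6 libraries were close together and SB2 replicate 2, with 3 counts of Rorb, stood apart from the 22 and 42 counts of the other two. Rorb was higher in SB4 than in SB2 by 6.08 (log2, SE 0.49, edgeR adjusted p = 0.000118), with 5.61 without SB2 replicate 2 and 6.91 without SB2 replicate 3. It differed by -5.78 between BS6 and BS2 (SE 0.13, edgeR adjusted p = 2.75e-06).

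SB2 replicate 2 was also low in genes of the pineal gland and of photoreceptors, a list that was chosen after its values were seen. The summed level of 10 such genes was 6.69 CPM in that library against 185 and 301 CPM in the other two SB2 libraries, 169 to 264 CPM in BS6, and 2.81 to 4.96 CPM in SB4 and BS2. Tph1, the first enzyme of melatonin synthesis, was at 3.28 CPM there against 50.2 and 100 CPM, and Crx, a photoreceptor and pineal transcription factor, was low in the same library. Rorb and these genes were thus low in the same SB2 library, and their part in the Rorb level was not tested.

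Mef2c, a MADS box factor, had the highest level per kilobase of exon of the 9 genes in every group and lies on chromosome 13 at 83504034 to 83667080 (plus strand). It had 1200, 1390 and 1440 CPM in SB4 and 1570, 1410 and 1580 CPM in BS2. It had 181, 144 and 145 CPM in SB2 and 101, 76.4 and 158 CPM in BS6, well above the floor in each of these libraries. The differences were 3.11 between SB4 and SB2 (log2, SE 0.12, edgeR adjusted p = 4.02e-10) and -3.76 between BS6 and BS2 (SE 0.3, adjusted p = 5.95e-05). The libraries with bone transcripts also held markers of cell types that use Mef2c outside the brain. The summed level of 7 B cell markers was 56.6 to 71.1 CPM in SB2 and 78.9 to 143 CPM in BS6 against 3.79 to 5.07 CPM in SB4 and BS2, and 6 skeletal muscle markers summed to 285 to 2440 CPM in SB2 and 71.1 to 577 CPM in BS6 against 9.04 to 11.5 CPM. SB2 replicate 3 held the low muscle sum of its group, 285 CPM against 1930 and 2440 CPM, and its Mef2c level lay beside that of SB2 replicate 2. The part of these cell types in the Mef2c level was not tested. The BS6 sums lay above those of SB2 for B cells and for the list of macrophage and neutrophil genes (1510 to 16200 CPM against 885 to 1350 CPM). The second sum was carried by neutrophil genes such as Ngp (mean 2520 CPM in BS6 and 305 CPM in SB2). The macrophage genes Csf1r, Cd68 and Adgre1 overlapped between BS6 and SB2. Of the 7 genes of each list 0 were called between BS6 and SB2, where 1.86% of all genes were called.

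Bcl11b, at chromosome 12, 107910403 to 108003602 (minus strand), had 66.5, 56.9 and 53.3 CPM in SB4 and 53.6, 57.7 and 59 CPM in BS2. It had 24.3, 36.3 and 38.3 CPM in SB2, and these values did not overlap those of SB4. The difference of 0.85 (log2, SE 0.17, edgeR adjusted p = 0.00182) was under the fold set for a call. The BS6 libraries were spread widely at 43.6, 8.82 and 29 CPM, all under those of BS2, and the difference of -1.06 (SE 0.51, edgeR adjusted p = 0.102) was not called. The lowest value was again that of BS6 replicate 2, and without it the difference was -0.64 with an edgeR adjusted p of 0.00743. Bcl11b was called without BS6 replicate 1 (-1.58, edgeR adjusted p = 0.0316) and in a fit of all 12 libraries (-1.07, adjusted p = 0.0344). Over all settings tried the adjusted p of this difference ranged from 0.00743 to 0.188. The osteoblast and osteocyte sum was lowest in BS6 replicate 2 as well, as given above, and was carried by Col1a1 (mean 50600 CPM in BS6). The other BS6 libraries did not follow, since replicate 3 had the higher sum (80700 CPM against 57100 CPM) and less Bcl11b than replicate 1. The 6 T cell markers summed to 60 to 64.5 CPM in SB2 and 45.8 to 70.9 CPM in BS6 against 11.2 to 13.5 CPM in SB4 and BS2, and the part of either list in the Bcl11b level was not tested. The T cell sum was carried by Tcf7, at 54.5, 49.5 and 56.4 CPM in SB2. Cd4, Cd3g, Cd8a and Lck went with it at lower levels, with means of 4.27, 1.02, 0.702 and 2.44 CPM in SB2. Their means in SB4 were 1.04, 0.0365, 0.0352 and 1.23 CPM. Of the 6 markers only Trbc2, a T cell receptor gene, ran the other way. It had 1.08, 0.722 and 0.665 CPM in SB2 and 5.97, 5.59 and 4.71 CPM in SB4.

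**Figure D2:**
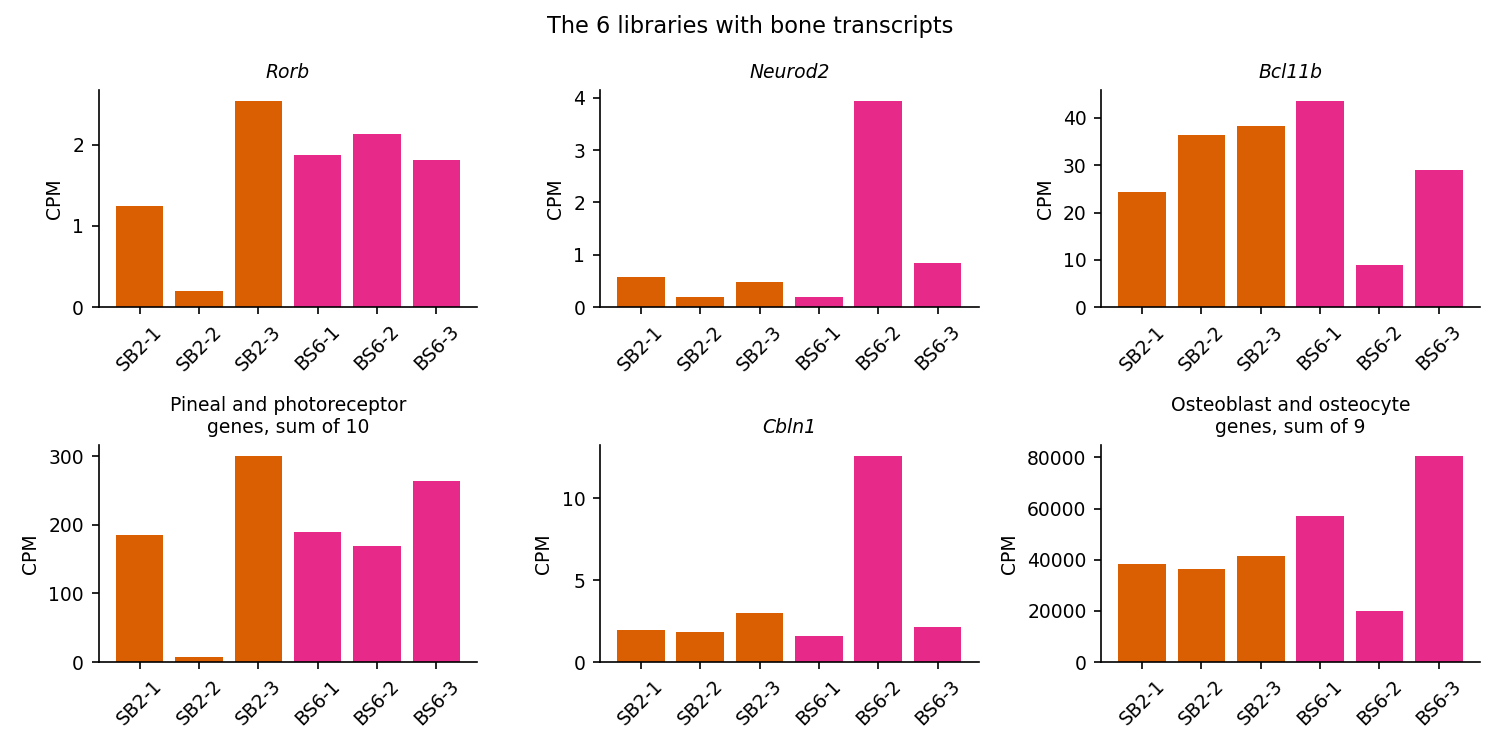
Level in CPM of Rorb, Neurod2 and Bcl11b (top) in each of the 6 libraries of SB2 and BS6, with the genes that stood apart in the same library (bottom): the sum of 10 pineal and photoreceptor genes, Cbln1, and the sum of 9 osteoblast and osteocyte genes. SB2 replicate 2 is lowest for Rorb (0.197 CPM), and BS6 replicate 2 is highest for Neurod2 (3.94 CPM) and lowest for Bcl11b (8.82 CPM). Between the other BS6 libraries, replicate 1 has more Bcl11b and replicate 3 the higher osteoblast and osteocyte sum.

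Cux1, at chromosome 5, 136248135 to 136567490 (minus strand), was not called in either comparison. Its level was 89.2, 102 and 132 CPM in SB4, 127, 126 and 119 CPM in BS2, 105, 101 and 100 CPM in SB2 and 98.2, 86.9 and 91.3 CPM in BS6. SB4 and SB2 overlapped, with a difference of 0.10 (log2, SE 0.13, edgeR adjusted p = 0.522). All BS6 values lay under those of BS2, and the difference of -0.43 (SE 0.09, edgeR adjusted p = 0.00487) was under the fold set for a call. The exons of Cux1 share 394 bases with an antisense gene, Gm16599, and since strand use in counting is not given in the sources used here, reads of both genes could not be told apart there. No other gene of the 9 shared exon bases with another annotated gene.

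Foxp2 was the only one of the 9 genes called higher in SB2 and in BS6. It lies on chromosome 6 at 14901349 to 15441977 (plus strand) and had 35.2, 35.9 and 37.1 CPM in SB2 and 32.7, 33.6 and 30.6 CPM in BS6. Its level was 19.2, 10.8 and 12.6 CPM in SB4 and 13.5, 13.8 and 13.2 CPM in BS2. The groups did not overlap in either comparison, with -1.35 between SB4 and SB2 (log2, SE 0.18, edgeR adjusted p = 8.91e-05) and 1.26 between BS6 and BS2 (SE 0.11, adjusted p = 7.18e-05). SB4 replicate 1 was the highest library of its group, and without it the first difference was -1.59.

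Set against the level in the libraries with brain transcripts, the 9 genes fell along a wide range. The SB2 mean was 0.156% of the SB4 mean for Tbr1, 0.518% for Neurod2, 1.46% for Rorb and 2.46% for Cux2. It was 11.7% for Mef2c, 55.9% for Bcl11b, 94.6% for Cux1 and 254% for Foxp2. The BS6 mean as a share of the BS2 mean had the same genes at both ends, with 0.15% for Tbr1, 1.97% for Neurod2, 1.81% for Rorb, 2.51% for Cux2, 7.36% for Mef2c, 47.8% for Bcl11b, 74.3% for Cux1 and 239% for Foxp2. The share of Neurod2 in BS6 rested on replicate 2 and was 0.617% without it, below that of Rorb (1.72%), and 2.83% without replicate 1. That of Rorb in SB2 was 0.797% without SB2 replicate 3 and 2.09% without SB2 replicate 2. That of Tbr1 ran from 0.0947% (without replicate 2) to 0.204% (without replicate 1) in SB2 and from 0.0736% (without replicate 1) to 0.225% (without replicate 2) in BS6 when a library was left out. Fezf2 was at or under the floor in all 6 libraries of SB2 and BS6. The same share for the 12 neuron markers ran from 0.162% to 3.06% (median 0.403%) in SB2 and from 0.416% to 2.92% (median 0.859%) in BS6. The lower limits rested on single libraries, with 0.0785% without SB2 replicate 2 and 0% without BS6 replicate 2. Neurod2, Rorb and Cux2 lay inside both neuron marker ranges. The few counts of Tbr1 and Fezf2 do not place them against either range. Mef2c, Bcl11b, Cux1 and Foxp2 lay above both. These shares are descriptions over groups of 3 libraries and were not tested.

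**Figure D3:**
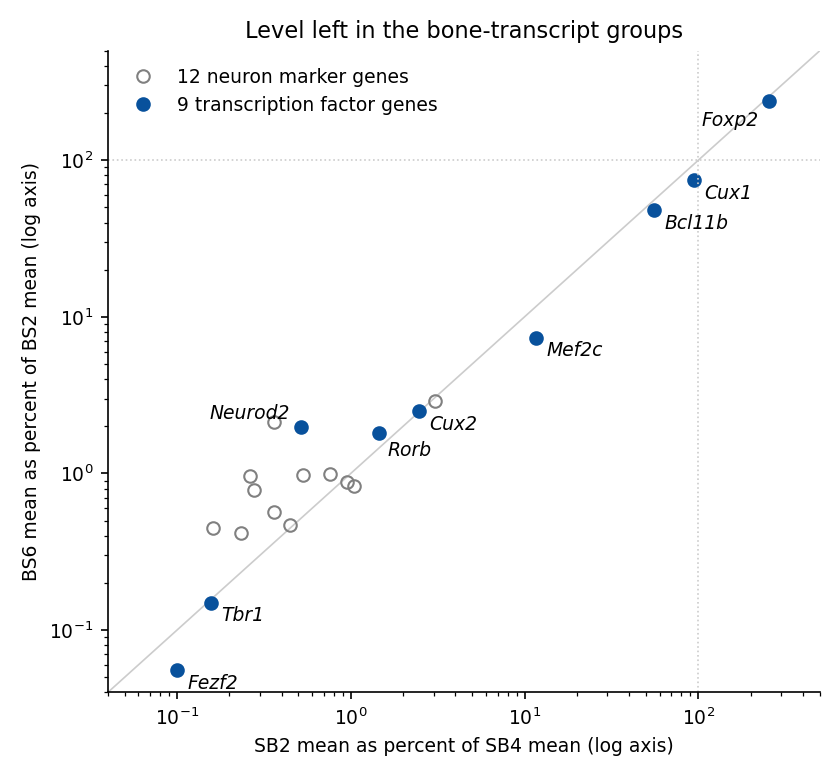
Mean level in SB2 as a percent of SB4 (x, log axis) against mean level in BS6 as a percent of BS2 (y, log axis) for the 9 genes (filled, named) and 12 neuron markers (open). The solid line marks equal shares and the dotted lines mark 100%; Mef2c, Bcl11b, Cux1 and Foxp2 lie to the right of all neuron markers, whose highest share is 3.06% in SB2.

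For the 7 genes called in both comparisons, the change with time had opposite directions in the libraries labelled brain and in those labelled bone. In a fit of all 12 libraries, the difference between these changes passed the edgeR test at an adjusted p under 0.05 for all 9 genes, where 84.9% of 18068 genes tested passed.

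Levels of different genes were ranked per kilobase of exon. The comparison of Fezf2 counts above and the ratios of counts below were not scaled by exon length. In SB4 the mean CPM per kilobase was 85.3 for Mef2c, 34.3 for Tbr1, 25.6 for Neurod2, 14.1 for Cux2, 13.4 for Fezf2, 8.2 for Rorb, 7.26 for Bcl11b, 5.39 for Cux1 and 0.869 for Foxp2. The order in BS2 was the same, with 96.7 for Mef2c, 32.1 for Tbr1, 26.8 for Neurod2, 14.3 for Cux2, 13.1 for Fezf2, 9.66 for Rorb, 7 for Bcl11b, 6.19 for Cux1 and 0.826 for Foxp2. Cux2 and Fezf2 overlapped over the libraries of both groups, and in SB4 Rorb overlapped with Bcl11b and Bcl11b with Cux1, while the remaining neighbours did not overlap. In SB2 and BS6 the order of the 4 best measured genes was Mef2c (9.99 and 7.13 CPM per kilobase), Cux1 (5.09 and 4.6), Bcl11b (4.06 and 3.35) and Foxp2 (2.21 and 1.98). These 4 did not overlap in SB2, and each overlapped with its neighbour in BS6.

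The groups that shared brain markers and those that shared bone markers were then set side by side, although their labels name different tissues, days and injuries. Between SB4 and BS2, 0 of the 9 genes were called, against 0.147% of 16278 genes (0.0860% higher and 0.0614% lower), and DESeq2 called 0 of the 9 as well. At an unadjusted p under 0.05 edgeR had 1 of the 9 genes, Mef2c (adjusted p = 0.295), and DESeq2 had 2. The share of all genes past that unadjusted threshold is not given here, so these counts do not set the members apart. Mef2c differed by -0.18 on the log2 scale with a 95% interval from -0.32 to -0.03, and its groups overlapped. For Tbr1 the difference was 0.10 (interval -0.01 to 0.21), for Neurod2 -0.07 (-0.19 to 0.06) and for Cux2 -0.02 (-0.14 to 0.11). The widest intervals were those of Foxp2, 0.06 (-0.35 to 0.46), and Cux1, -0.20 (-0.54 to 0.15). Rorb differed by -0.23 (-0.5 to 0.03), Fezf2 by 0.03 (-0.17 to 0.24) and Bcl11b by 0.05 (-0.11 to 0.22). None of these 9 intervals reached a difference of 1 in either direction. All SB4 values of Tbr1 lay above those of BS2, while the groups overlapped for each of the other genes. The share of all genes without overlap was not counted, and Tbr1 was not called (edgeR adjusted p = 0.495).

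The balance between factors of different layers was described by ratios of counts within a library. The count ratio of Cux2 to Tbr1, upper layers to layer 6, was 0.711, 0.756 and 0.802 in the SB4 libraries and 0.858, 0.847 and 0.751 in BS2. That of Fezf2 to Tbr1 was 0.245, 0.21 and 0.196 in SB4 and 0.243, 0.192 and 0.246 in BS2. The ratio of Rorb to Tbr1 was 0.398, 0.491 and 0.563 in SB4 and 0.688, 0.581 and 0.562 in BS2, where all but 1 of the BS2 values were above all of SB4. That of Neurod2 to Tbr1 was 0.431, 0.401 and 0.452 in SB4 and 0.495, 0.472 and 0.473 in BS2. The groups overlapped for Cux2 and Fezf2 and did not overlap for Neurod2, and no test was made of these ratios.

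Between BS6 and SB2, 0 of the 6 genes tested were called, against 1.86% of 16329 genes (1.11% higher and 0.741% lower), and 0 were past an unadjusted p of 0.05 in edgeR or called by DESeq2. Tbr1, Fezf2 and Neurod2 had too few counts to be tested. The intervals were wide for Rorb, 0.50 (95% interval -1.21 to 2.21), and Bcl11b, -0.31 (-1.6 to 0.97), and Cux2, 0.02 (-0.97 to 1). They were narrower for Cux1, -0.18 (-0.4 to 0.03), Foxp2, -0.19 (-0.41 to 0.03), and Mef2c, -0.52 (-1.17 to 0.14). All BS6 values of Cux1 and of Foxp2 lay under those of SB2, while the groups overlapped for the other genes tested. The share of all genes without overlap was not counted here either, so this does not set Cux1 and Foxp2 apart. A 2-fold difference lay inside the intervals of Rorb, Bcl11b and Mef2c and at the edge of that of Cux2. The comparisons share libraries with each other, so their values are not independent.

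**Figure D4:**
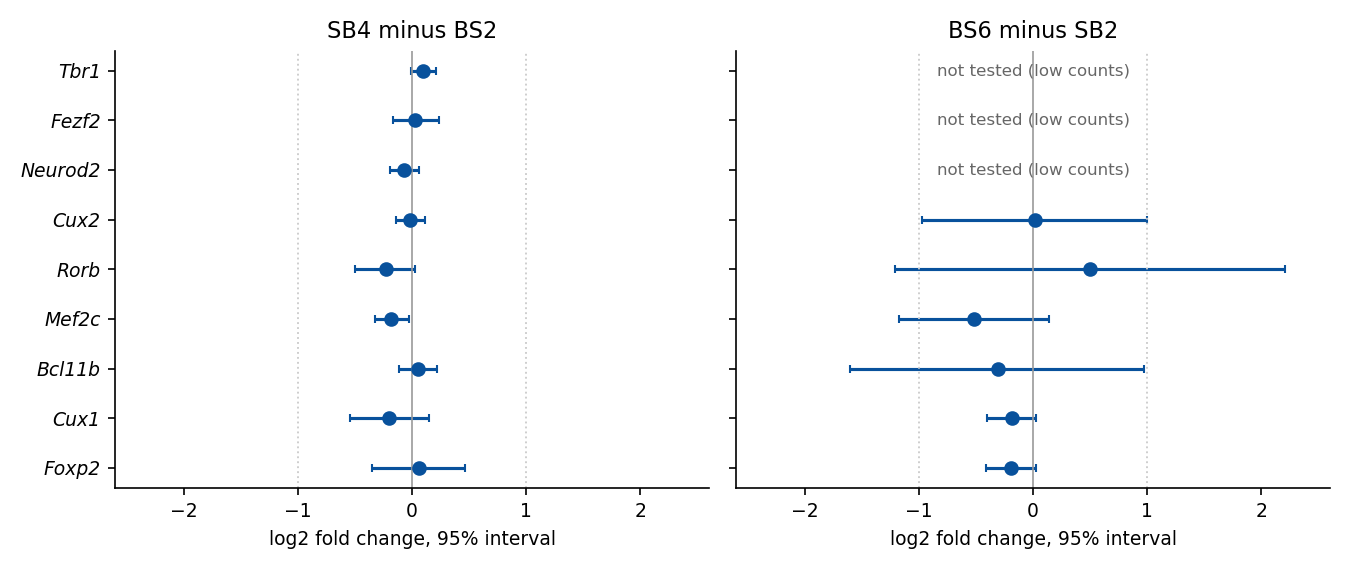
Log2 fold change with its 95% interval for SB4 minus BS2 (left) and BS6 minus SB2 (right), with dotted lines at the fold set for a call. All 9 intervals on the left stay between the dotted lines, and on the right Rorb, from -1.21 to 2.21, has the widest interval and 3 genes had too few counts to be tested.

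Since Tbr1, Fezf2 and Neurod2 moved together and Cux1 did not, the sequence around their start sites is shown for comparison. RefSeq (GRCm38.p6) gave 13 windows for 9 of the 10 listed genes, each from 250 bases before to 50 bases after a start, with Neurod6 among them and Foxp2 not. The letters CANNTG, the E-box bound by factors of the Neurod class, are in capitals, and this pattern reads the same on both strands.
Tbr1, chr2:61804203-61804502, plus strand: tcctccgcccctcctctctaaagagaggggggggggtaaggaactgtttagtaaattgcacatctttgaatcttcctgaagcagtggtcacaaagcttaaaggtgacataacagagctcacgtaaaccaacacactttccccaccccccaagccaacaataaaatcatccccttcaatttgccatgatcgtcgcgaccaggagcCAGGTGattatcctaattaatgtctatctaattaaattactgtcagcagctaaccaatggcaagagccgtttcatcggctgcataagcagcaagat
Fezf2, chr14:12345816-12346115, minus strand: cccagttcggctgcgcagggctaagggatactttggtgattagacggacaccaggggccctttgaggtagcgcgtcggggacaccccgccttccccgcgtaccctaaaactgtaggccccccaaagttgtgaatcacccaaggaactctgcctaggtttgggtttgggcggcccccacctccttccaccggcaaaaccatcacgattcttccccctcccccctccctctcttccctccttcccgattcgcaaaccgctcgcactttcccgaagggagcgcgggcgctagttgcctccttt
Neurod2, chr11:98329596-98329895, minus strand: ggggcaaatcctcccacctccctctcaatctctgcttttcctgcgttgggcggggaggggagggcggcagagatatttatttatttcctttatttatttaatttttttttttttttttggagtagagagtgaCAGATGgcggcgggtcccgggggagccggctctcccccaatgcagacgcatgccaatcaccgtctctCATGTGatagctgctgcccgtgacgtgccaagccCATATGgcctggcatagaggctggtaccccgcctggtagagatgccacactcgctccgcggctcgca
Cux1, chr5:136565932-136566231, minus strand: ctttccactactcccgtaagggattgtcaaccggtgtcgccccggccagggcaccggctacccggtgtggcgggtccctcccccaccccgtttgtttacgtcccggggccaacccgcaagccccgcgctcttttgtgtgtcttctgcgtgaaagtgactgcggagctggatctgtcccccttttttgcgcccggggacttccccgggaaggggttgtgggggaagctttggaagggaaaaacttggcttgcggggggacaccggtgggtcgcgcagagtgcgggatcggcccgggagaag
The Tbr1 window held 1 E-box and the Neurod2 window 3, one of them with the letters CAGATG, while the Fezf2 and Cux1 windows held 0. Over all windows of the listed genes, 9 of 13 held CANNTG, against 72.3% of 32851 mouse promoter windows of the same length, and 3 of 13 held CAGATG, a case of CANNTG, against 17.2%, searched on both strands. The windows also differed in CG pairs, with 7 in Tbr1, 16 in Neurod2, 20 in Fezf2 and 25 in Cux1, against a median of 7 over all windows. Of the windows not printed, those of Cux2 held 2 and 1 E-boxes, those of Rorb 3 and 1, and those of Mef2c 2, 0 and 1. The Neurod6 window held 2 and the Bcl11b window 0. Of Tbr1, Fezf2, Neurod2, Cux2, Rorb and Mef2c, which moved together, only Fezf2 thus had no E-box in any window. Cux2, Rorb and Mef2c had more than 1 window each, while Cux1 and Bcl11b had 1. The share of all genes with an E-box in any window was not counted. A link of E-boxes with these levels was not tested, and a match of letters is a description and not a binding site.

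The other genes of the same pathway were taken from a list of regulators of cortical projection neurons. Of 29 of them tested, 20 were called higher and 2 lower in SB4 than in SB2 (median log2 difference 3.10), where 27.8% of all genes were called higher and 28.6% lower. In BS6 against BS2, 3 were called higher and 19 lower (median -2.28), where 29.0% of all genes were called higher and 26.5% lower. The medians over all genes tested were -0.01 and 0.02. Pou3f2, a POU domain factor of upper-layer neurons, was 64, 60.6 and 67.4 CPM in SB4 and 0.284, 0.0656 and 0.363 CPM in SB2, a difference of 8.01 (SE 0.2, edgeR adjusted p = 1.7e-11). Myt1l, a zinc finger factor that holds neuronal identity, was 299, 294 and 327 CPM in SB4 and 0.227, 0.131 and 0.0605 CPM in SB2. In BS6 it was 0.0667, 4.25 and 0 CPM, so that replicate 2 was again the high library, as for Neurod2. Between SB4 and BS2, 0 of 29 of these genes were called, against 0.147% of all genes.

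Rest, named after its values were seen, ran against the majority of that list. Rest, which represses neuronal genes in other cells, was 6.4, 4.64 and 6.52 CPM in SB4 and 50, 46.3 and 46 CPM in SB2, a difference of -3.01 (SE 0.12, edgeR adjusted p = 9.87e-10), and it was higher in BS6 than in BS2 by 2.95.

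Relatives of the 9 genes from the same families were called in both directions. Among 9 family members tested between SB4 and SB2, 3 were called higher and 1 lower (median 0.70), where 27.8% of all genes were called higher and 28.6% lower, and among 11 tested between BS6 and BS2, 3 were called higher and 3 lower (median -0.38), where 29.0% were called higher and 26.5% lower. Bcl11a, the paralog of Bcl11b that is needed for B cells and for neurons, was 102, 101 and 95.9 CPM in SB4 and 103, 106 and 110 CPM in BS2, against 2.27, 2.49 and 1.94 CPM in SB2 and 3.94, 6.44 and 6.85 CPM in BS6. It was higher in SB4 than in SB2 by 5.49 (SE 0.1, edgeR adjusted p = 2.47e-12), while Bcl11b differed by 0.85. Between BS6 and SB2 it was the 1 of 11 relatives called, by 1.33 (SE 0.28, edgeR adjusted p = 0.0492), where 1.86% of all genes were called, and the call was lost without any of the SB2 libraries and with the replicate number as a block. Rora, the relative of Rorb, was higher in SB4 by 1.06 (edgeR adjusted p = 1.16e-07). Mef2d was higher in SB4 by 1.08 (edgeR adjusted p = 3.51e-08), against 3.11 for Mef2c, and its difference of -0.87 between BS6 and BS2 (adjusted p = 0.000471) was under the fold set for a call.

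Genes that mark layers without being transcription factors and genes known as targets of the 9 factors were counted in the same way. Of all genes tested, 27.8% were called higher and 28.6% lower in SB4 than in SB2, and 29.0% higher and 26.5% lower in BS6 than in BS2. Of 19 layer genes 12 were called higher, 1 lower and 6 not in SB4 against SB2 (median 2.78), and 1 higher, 12 lower and 6 not in BS6 against BS2 (median -2.48). The layer gene that ran the other way was Ctgf, a secreted protein of the deepest neurons and of bone, with -4.25 in SB4 against SB2 (edgeR adjusted p = 0.000177). Lamp5, a membrane protein of upper layers, was 317, 333 and 386 CPM in SB4 and 0.17, 0.197 and 0.121 CPM in SB2. Of 11 reported targets 8 were called higher, 2 lower and 1, Auts2, not in SB4 against SB2 (median 2.94), and 2 higher, 8 lower and 1 not in BS6 against BS2 (median -2.63). Grin2b, an NMDA receptor subunit and target of Tbr1, was 466, 478 and 583 CPM in SB4 and 0.398, 0.197 and 0 CPM in SB2. The pair that ran the other way was Srpx2, a target of Foxp2 with a difference of -6.66 (edgeR adjusted p = 6.5e-12), and Sost, the osteocyte inhibitor of bone formation that Mef2c controls, with -3.12 (adjusted p = 0.00059). Foxp2, Srpx2 and Sost were all higher in the libraries with bone transcripts, while Mef2c was lower there. Sost was low in both groups, with means of 1.26 CPM in SB2 and 6.54 CPM in BS6. Cntnap2, among the 8 reported targets higher in SB4, differed by 5.34 (edgeR adjusted p = 5.93e-06). The part of the factors in the levels of these targets was not tested.

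The genes whose pattern over the 12 libraries was most like that of each factor were found by the root mean square difference of centred log2(CPM + 1) over 18067 genes. The nearest was Grin2a, an NMDA receptor subunit, for Tbr1 (0.134), Extl1 for Cux2 (0.133), Gm19410 for Fezf2 (0.119), Mapk8ip2 for Neurod2 (0.175), Ptprt for Rorb (0.182) and Wnk3 for Mef2c (0.194). Grin2a had means of 318 and 327 CPM in SB4 and BS2 and of 1.67 and 1.54 CPM in SB2 and BS6. For the genes outside that pattern the nearest were Nrep for Bcl11b (0.194), Zranb3 for Cux1 (0.084) and Rpl17, a ribosomal protein gene, for Foxp2 (0.131). Reads of Rpl17 may be shared with its pseudogenes. Rpl17 had means of 48.7 and 50.2 CPM in SB2 and BS6 and of 19.8 and 19.6 CPM in SB4 and BS2.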

How the data were processed

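The authors sequenced poly(A) RNA in paired-end mode, trimmed reads with fastp and deposited whole-number counts of reads per gene; the submitters' processing notes name HISAT2 2.1.0 and mm10. The counting program, annotation, use of strand and whether the deposited counts precede the study's batch correction are not given in the sources used here. All 12 columns were matched to samples by their labels, in 4 groups of 3, and no library pair was identical.

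Fits were made on the deposited counts with edgeR 4.0.16 in R 4.3.3: genes were kept by filterByExpr with a minimum count of 10, libraries were scaled by TMM, and robust quasi-likelihood tests were adjusted by the Benjamini-Hochberg method over all genes tested. Each 2-group fit held 3 and 3 libraries, and the difference between changes was fitted over all 12. SE was taken from each log2 fold change and the root of its F value. The steps were tested on simulated data. Positions and exon lengths came from GENCODE for mm10. DESeq2 1.42.0, other scalings and filters, the replicate number as a block and leaving out libraries were alternatives. Figures were drawn with matplotlib 3.10.9.

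All listed members were named, with at most 4 genes of each list by size of change and the nearest gene of each member. The members and lists were chosen with earlier results of these data known. Floors cover counting error only. Some genes of the lists are counted but not reported by name here.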

Additional observations from a re-analysis of the deposited data

Results flagged for a closer look

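For all 9 genes the change from SB2 to SB4 and the change from BS2 to BS6 differed beyond the spread between libraries. The difference of the changes, SB4 minus SB2 less BS6 minus BS2, was tested by edgeR over all 12 libraries, and 84.9% of all genes tested passed the same test. It was 18.69 on the log2 scale for Tbr1 (SE 0.56, adjusted p = 9.88e-11), 13.18 for Neurod2 (SE 0.86, adjusted p = 5.71e-08), 11.85 for Rorb (SE 0.61, adjusted p = 6.57e-09) and 10.66 for Cux2 (SE 0.41, adjusted p = 6.17e-10). For Fezf2 the fitted value was 20.13 (adjusted p = 1.94e-11), which depends on the prior count because SB2 and BS6 were at or under the floor. It was 6.86 for Mef2c (SE 0.34, adjusted p = 3.09e-09) and -2.61 for Foxp2 (SE 0.24, adjusted p = 9.65e-07). It was smaller for Bcl11b, 1.9 (SE 0.58, adjusted p = 0.00995), and for Cux1, 0.51 (SE 0.17, adjusted p = 0.0158), and neither gene was called in the main comparisons of 2 groups. Leaving out a library kept all 9 genes past the test and moved the difference to 18.1 (without BS6 replicate 2) and 19.72 (without BS6 replicate 1) for Tbr1 and to 12.72 and 14.84 for Neurod2 (without BS6 replicates 1 and 2). It was 11.37 and 12.68 for Rorb (without SB2 replicates 2 and 3), 19.62 and 22.07 for Fezf2 (without SB2 replicate 3 and BS6 replicate 1), and 1.48 and 2.47 for Bcl11b (without BS6 replicates 2 and 1). The tissue content of the libraries runs with these changes, since the libraries labelled SB2 and BS6 held bone transcripts and those labelled SB4 and BS2 held brain transcripts, and time and tissue content cannot be told apart.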

How the results depend on the processing

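Every call of a member in the comparisons of SB4 with SB2 and of BS6 with BS2 kept its direction and its side of the threshold in each alternative that gave it a value. Asking for at least 10 counts in every library removed the low members. Cux1, Cux2, Bcl11b, Foxp2 and Mef2c stayed in SB4 against SB2, in BS6 against BS2 and in the difference between the changes. Of these comparisons, Rorb stayed only in BS6 against BS2. The filter left 3 called members in SB4 against SB2, 4 in BS6 against BS2 and 5 in the difference between the changes. The share of all genes called under that filter is not given here. Bcl11b was called between BS6 and BS2 in a fit of all 12 libraries (-1.07, edgeR adjusted p = 0.0344) and without BS6 replicate 1 (-1.58, adjusted p = 0.0316), and over the fits leaving out a library it ranged from -1.58 to -0.64. Its BS2 to BS6 difference with the replicate number as a block was -1.3 (adjusted p = 0.0701).

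Signs turned only where no call was made. Leaving out a library gave ranges on both sides of 0 for Cux1 between SB4 and SB2 (-0.07 to 0.23), for Cux2 (-0.06 to 0.04), Fezf2 (-0.05 to 0.11), Bcl11b (-0.04 to 0.12) and Foxp2 (-0.21 to 0.22) between SB4 and BS2, and for Cux2 (-0.27 to 0.3) and Bcl11b (-0.82 to 0.11) between BS6 and SB2. Scaling by total counts alone gave -0.04 for Cux2 between BS6 and SB2, and leaving out BS6 replicate 2 and SB2 replicate 2 together, chosen after seeing the data, gave 0.22 for Bcl11b and -0.03 for Rorb there.

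Counts over all genes moved more. Between SB4 and BS2 the 24 called genes became 50 with no filter, 43 by DESeq2, 61 with the replicate block, 8 in a fit of all 12 libraries and 11 without both libraries named above, and 18 to 85 without a library. Between BS6 and SB2 the 303 became 1058 by DESeq2, 1273 in a fit of all 12 libraries and 1013 without both libraries. With the replicate block edgeR called 0 there, with 3950 at an unadjusted p under 0.05. Leaving out a library gave 0 to 667, with 0 without any SB2 library (2938 to 3494 at an unadjusted p under 0.05) and 667 without BS6 replicate 2. The causes were not tested. Libraries of the same number did not deviate together (correlations -0.13 to 0.09), so the numbers were not taken as pairs, and the block changed no call of a member.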
